A study of Mus musculus with 6 samples.

Results

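The cytoplasmic ribosomal protein genes encode the proteins of the large and the small subunit of the ribosome that translates nuclear-encoded mRNA. They were taken by name from the authors' lists of called genes: Fau and every symbol starting with Rpl or Rps and a number, or Rplp, without the Rps6k kinases and without names ending in -ps, which mark pseudogenes. This gave 23 of the 1167 distinct genes in the 4 lists. The lists came from polyadenylated RNA of otocysts, vesicles of epithelium from which the inner ear develops, taken from B6129SF1/J mouse embryos at embryonic day 10.5. Wild type embryos had 0, heterozygous embryos 1 and homozygous embryos 2 Chd7 alleles named Gt (the usual mouse symbol for a gene trap), with 2 libraries for each of the 3 genotypes. The labels do not say how many embryos stand behind a library or whether the 2 libraries of a genotype are separate embryos. The spread between libraries that the deposited p-values draw on may therefore be technical. Chd7, the gene carrying the trap and the gene of a chromatin remodeller, was lower in heterozygous (log2 -0.57) and in homozygous otocysts (log2 -2.16) in the authors' deposited table.

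A ribosome needs its proteins in nearly equal numbers, and the genes of the family are among the most strongly transcribed in growing cells. Their mRNAs are short and begin with a tract of pyrimidines, the TOP motif, through which the kinase mTOR and the RNA-binding protein LARP1 control their translation. Shortage of single members causes tissue-selective defects in mice and people, including anaemia, pigment changes and skeletal malformation.

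In homozygous otocysts 22 ribosomal protein genes rose and 0 fell, with a median log2 fold of 0.91 (1.88-fold) and a range from 0.69 to 1.39 in the authors' deposited table. The GENCODE annotation holds 86 protein-coding symbols that fit the name rule, so 64 of them were not listed in this comparison. The 86 include Rps19bp1, which fits by name but is the gene of an Rps19-binding protein. Among all 21992 protein-coding symbols, 1.77% were listed as higher and 2.96% as lower in homozygotes. Which of these symbols were expressed or tested is not given, so the shares among expressed genes are not known. A gene enters the set only by being listed, so the share of the family that was called is a description. The direction was not part of the rule. Of all genes listed in homozygotes, 38.3% were higher, with a median log2 fold of 1.31 against 0.91 for the ribosomal protein genes. The large subunit had 12 of 52 annotated symbols listed, with a median log2 fold of 0.90, and the small subunit 10 of 34, with a median of 0.92. With no value per library used here, neither the depth nor the spread between replicates is known, and whether the libraries of the genotypes overlap could not be seen. In bulk tissue more RNA per cell and more cells of a type rich in that RNA cannot be told apart.

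**Figure D1:**
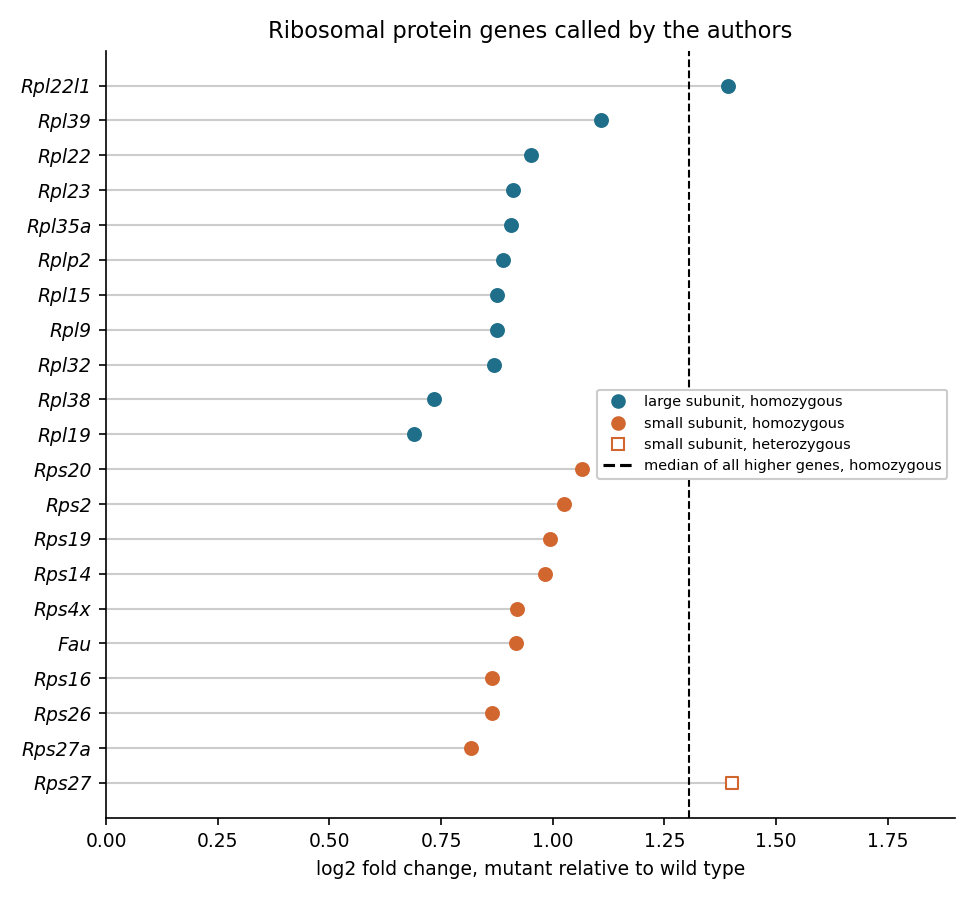
Log2 fold change relative to wild type for the listed ribosomal protein genes that are named in the text (1 point per gene, filled circles for homozygous, the open square for heterozygous otocysts). The homozygous values lie between 0.69 and 1.39, and 1 of them, Rpl22l1, is above the median of all higher genes (dashed line at 1.31).

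Among the large subunit genes, Rpl35a had the smallest adjusted p of the family in the authors' deposited table (log2 0.91, adjusted p 4.5e-13). It encodes a protein whose human counterpart is mutated in Diamond-Blackfan anaemia. Rpl19, whose protein reaches across to the small subunit, was higher by a log2 fold of 0.69 (adjusted p 6.64e-06), the smallest fold of the set in the authors' deposited table. In the authors' deposited table Rpl38 rose by 0.73 on the log2 scale (adjusted p 0.00013). Loss of 1 copy of Rpl38 underlies the mouse mutant Tail short, with changed axial patterning and middle ear defects. Rpl39, whose small protein lines the tunnel through which the new chain leaves, was at log2 1.11 in the authors' deposited table (adjusted p 0.00594).

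Further large subunit members lay close together. In the authors' deposited table Rpl22, which mice need for T cell development, was at log2 0.95 (adjusted p 0.0244) and Rpl23, at the face that joins the small subunit, at 0.91 (0.0293). Rplp2, a protein of the acidic stalk that recruits elongation factors, was at log2 0.89 in the authors' deposited table (adjusted p 0.0340). Rpl15 and Rpl9 both had a log2 fold of 0.88, with adjusted p-values of 0.0319 and 0.0423, and Rpl32 had 0.87 (0.0379) in that column of the authors' deposited table. These 6 genes span less than 0.1 on the log2 scale.

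Rpl22l1 had the largest fold of the 22 members in homozygotes, which was 2.63-fold in the authors' deposited table (log2 1.39, adjusted p 0.00248). It is the paralogue of Rpl22, which in mice represses it, and both were listed as higher. Over the 77.6% of the Rpl22 coding sequence that aligns, the 2 genes are 74.6% identical, below the 95% taken here as near-identical. Of the 8 paralogues in a written list, Rpl22l1 was the 1 called, and Rpl3l, Rpl7l1, Rpl10l, Rpl36al, Rpl39l, Rps27l and Rps4l were not listed.

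Of the small subunit genes, Fau, which encodes a ubiquitin-like protein fused to a ribosomal protein, rose by 0.92 on the log2 scale in the authors' deposited table (adjusted p 2.03e-08). Rps27a, a fusion of ubiquitin itself with a ribosomal protein, rose by 0.82 on the same scale of the authors' deposited table (adjusted p 0.00134). Rpsa and Rack1, small subunit genes outside the name rule, were not listed. Rps20 had the largest small subunit fold in homozygotes (log2 1.06, adjusted p 0.00816) and Rps2, at the entry channel of the mRNA, followed at 1.03 (adjusted p 0.00992) in the authors' deposited table. Rps19, the gene most often mutated in Diamond-Blackfan anaemia in people, was at log2 0.99 in the authors' deposited table (adjusted p 0.0144). In mice, mutations of Rps19 and of Rps20 both give dark skin through p53.

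Rps14, reduced in a human myelodysplastic anaemia, was at log2 0.98 in the authors' deposited table (adjusted p 0.0220). Rps4x, on the X chromosome, was at 0.92 (0.0444), Rps16, whose tail reaches the decoding site, at 0.86 (0.0409) and Rps26, at the mRNA exit, at 0.86 (0.0412), again in the authors' deposited table. Rps4x stood just inside the limit of 0.05, while the list of higher genes ended at 0.0498. The lists used here hold called genes only, so whether other ribosomal protein genes lay just outside that limit cannot be seen.

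In part of the set a larger fold went with a smaller adjusted p. For the 16 with an adjusted p above 0.005 the log2 folds ran from 0.84 to 1.11. Across these genes, which share the same libraries and are not independent, the rank correlation of fold with adjusted p was -0.90. The cut was made on adjusted p itself and left out the members named next, so the value does not describe all 22. Rpl35a, Fau, Rpl19, Rpl38 and Rps27a stood apart, with smaller adjusted p-values at folds in the same range or below it. Rpl22l1 lay at the other end, with the largest fold in homozygotes and an intermediate adjusted p. Members were moderate in fold and late in the list: 18 of 22 had a log2 fold under 1, against 126 of the 416 higher genes. Ribosomal protein genes made up 14.3% of those 126 and 5.29% of all higher genes. The median adjusted p was 0.0232 over the members and 0.0034 over all higher genes in the authors' deposited table.

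**Figure D2:**
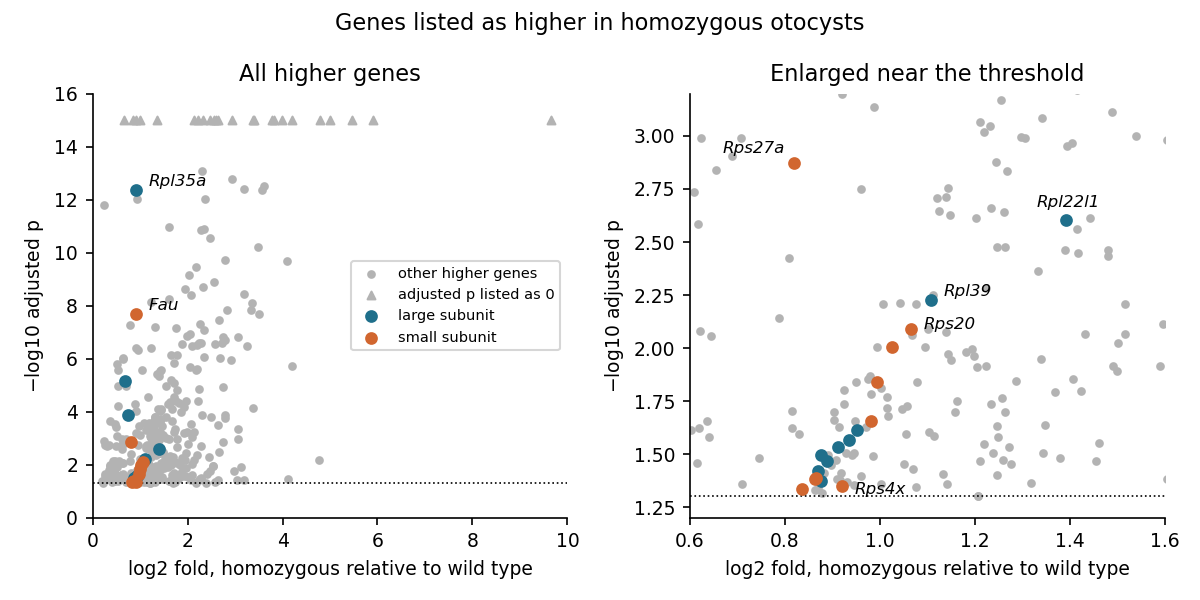
Minus log10 of the authors' adjusted p against log2 fold for the 416 genes listed as higher in homozygotes, with large (blue) and small (orange) subunit genes marked, triangles at the top edge for genes listed with an adjusted p of 0, and a dotted line at 0.05. In the enlarged view most members follow a narrow band that ends at Rpl39 (log2 1.11), and Rpl35a and Fau lie far above it on the left.

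In heterozygous otocysts 1 ribosomal protein gene was listed, Rps27, which in the authors' deposited table rose 2.64-fold (log2 1.40, adjusted p 0.0211). Among annotated protein-coding symbols 0.182% were listed as higher and 0.427% as lower in heterozygotes, and of the 138 genes listed there 31.2% were higher. Rps27 was not listed in homozygotes, and none of the 22 homozygous members was listed in heterozygotes. The 2 comparisons share their wild type libraries, and the difference between the genotypes was not tested. The coding sequence of the annotated retrogene Rps27rt is 100% identical to that of Rps27 and that of Rps27l is 76.2% identical, so reads from the coding part of Rps27 and Rps27rt cannot be assigned by sequence. Their untranslated parts were not compared.

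Processed pseudogenes were a feature of the family that the rule left out. A copy of any annotated gene type was counted as near-identical at 95% identity over at least 80% of the coding sequence. All 23 listed genes and 56 of the 63 in neither list had at least 1 such copy in the annotation, with medians of 4 and 5 copies. The 1 copy of Rplp2 is not annotated as a pseudogene. Among the genes listed as higher in homozygotes were 4 annotated pseudogenes of this kind: Rpl34-ps1 (log2 2.30), Gm15421 (1.30), Rps19-ps3 (0.94) and Gm6654 (0.89) in the authors' deposited table. Gm15421 copies Rpl22l1, whose own log2 fold in the authors' deposited table was 1.39. Rps19-ps3 and Gm6654 copy Rps19 (log2 0.99) and Rps26 (0.86 in the authors' deposited table), so each of these 3 pairs had similar folds. Rpl34-ps1 is 99.4% identical to Rpl34, which was not listed. How the authors counted reads that fit both a gene and its copies is not stated in the sources used, so the folds of both are uncertain.

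Listed and not listed genes of the family overlapped in coding length. The median, without the stop codon, was 420 nt for the 23 listed genes (153 to 879 nt) and 468 nt for the other 63 (75 to 1257 nt). In the large subunit the medians were 394.5 and 487.5 nt, and none of the 12 listed genes reached 700 nt while 10 of the 40 others did. In the small subunit the medians were 438 and 429 nt, and 2 of the 11 listed genes and 3 of the 23 others reached 700 nt. Of proteins with a counterpart in bacteria, 6 of 33 genes of the written list were higher in homozygotes, and of those without one 15 of 47 were. These are counts of called genes and were not tested.

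**Figure D3:**
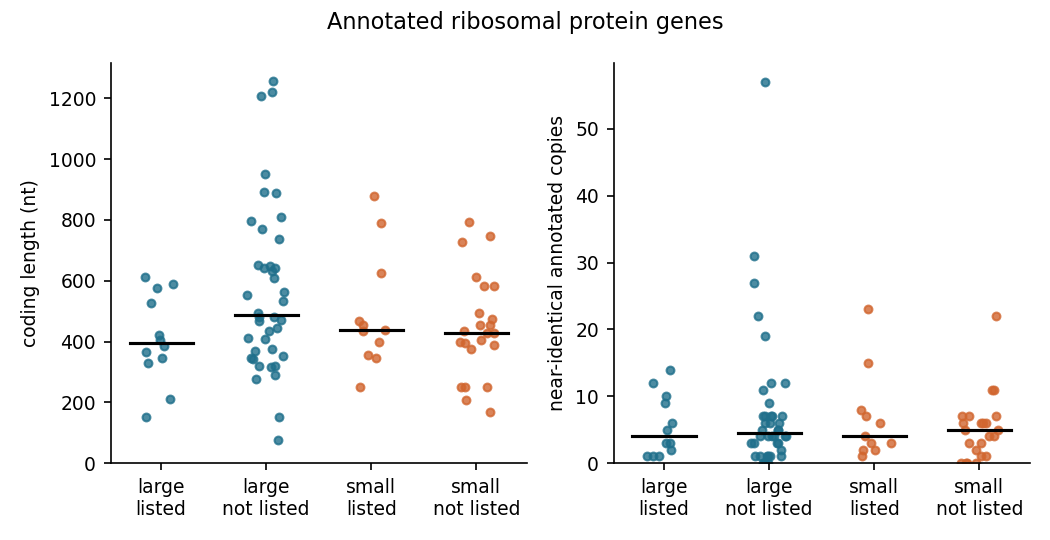
Coding length (left, nt) and number of near-identical annotated copies (right) of the 86 annotated genes that fit the name rule. Each gene is 1 point, by subunit and by whether either genotype's list holds it, with medians as bars. Listed and other genes overlap throughout, and the longest large subunit genes are not listed.

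The pyrimidine tract of the TOP motif was looked for at the start sites. The RefSeq promoter table (build GRCm38.p6) held 17 of the 23 listed genes and 66 of the 86 in all. The following windows run from 50 bases before to 20 after the annotated start on the transcribed strand, and capitals mark the longest unbroken run of C and T within 5 bases of the start, where it has at least 6 bases. The first 7 windows were chosen because they hold such a run, and the windows of Rpl23 and Rps4x because they do not. For Rpl35a, the window is the 1 of its 3 annotated starts that holds a run.
Rpl35a, chr16:33056432-33056501, plus strand: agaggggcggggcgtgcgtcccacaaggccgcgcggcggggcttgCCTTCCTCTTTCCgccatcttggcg
Fau, chr19:6057897-6057966, plus strand: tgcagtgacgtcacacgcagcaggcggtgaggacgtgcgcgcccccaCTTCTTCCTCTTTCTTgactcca
Rpl38, chr11:114668530-114668599, plus strand: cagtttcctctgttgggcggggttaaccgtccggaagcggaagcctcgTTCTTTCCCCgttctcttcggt
Rpl15, chr14:18270967-18271036, minus strand: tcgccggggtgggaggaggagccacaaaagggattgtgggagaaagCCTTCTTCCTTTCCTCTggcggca
Rplp2, chr7:141447601-141447670, plus strand: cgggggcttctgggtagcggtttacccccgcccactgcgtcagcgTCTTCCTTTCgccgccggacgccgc
Rpl22l1, chr3:28805458-28805527, plus strand: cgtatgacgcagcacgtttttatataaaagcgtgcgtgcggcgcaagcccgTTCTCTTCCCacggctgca
Rps27, chr3:90213629-90213698, minus strand: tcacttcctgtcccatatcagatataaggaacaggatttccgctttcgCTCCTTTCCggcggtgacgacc
Rpl23, chr11:97782420-97782489, minus strand: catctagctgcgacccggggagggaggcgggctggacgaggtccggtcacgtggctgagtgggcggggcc
Rps4x, chrX:102189372-102189441, minus strand: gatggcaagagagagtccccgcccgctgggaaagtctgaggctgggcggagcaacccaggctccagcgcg

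A run of at least 6 such bases near the start was found in 10 of the 17 listed genes, in 24 of the 49 others of the family and in 24.0% of all 27025 genes in the table. These counts take every annotated start of a gene. With 1 window per gene they were 8, 24 and 21%. The other 7 listed genes, Rpl22, Rpl23, Rpl39, Rpl9, Rps16, Rps19 and Rps4x, had no such run at any start in the table. In the Rpl39 window a longer run of C and T begins just past the 5 bases searched. The starts used in otocysts were not looked at, so a run missing at an annotated start does not show that the mRNA lacks the tract.

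Other letters were searched on both strands of the 300-base promoters. The ETS core CGGAAG was in 10 of the 17 listed genes, 33 of the 49 others and 18.8% of all genes, and the GC box GGGCGG in 12, 29 and 38.2%. AANATGGC, the core bound by YY1, was in 6 of 17, 8 of 49 and 6.96%, and TATAAA in 4, 3 and 15.7%. The letters ACGTG, the core of the sites of hypoxia-inducible factors and, as CACGTG, of Myc, were in 10 of the 17 listed genes, 11 of the 49 others and 21.8% of all genes. With 1 window per gene these counts were 9, 10 and 19.7%. CACGTG, which contains ACGTG, was in 3, 3 and 8.09%. A match is a run of letters and does not show binding. The differences between listed and other genes were not tested for any of these motifs. The match nearest to the start is shown for the 6 listed genes in which it lay closest, with ACGTG or its reverse complement in capitals and its first base given relative to the start.
Rpl23, chr11:97782427-97782451, minus strand, at -2: aggtccggtcACGTGgctgagtggg
Rpl9, chr5:65391406-65391430, minus strand, at +12: gattacaagaACGTGatgacgaaag
Fau, chr19:6057919-6057943, plus strand, at -18: ggcggtgaggACGTGcgcgccccca
Rpl19, chr11:98026682-98026706, plus strand, at -18: ccagaggaccACGTGaccaaacgcc
Rps19, chr7:24884878-24884902, plus strand, at -25: gacgcccggaACGTGggcttgaggg
Rpl22l1, chr3:28805460-28805484, plus strand, at -38: tatgacgcagCACGTttttatataa

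Other gene lists of the translation machinery and of mitochondria are read against all annotated protein-coding symbols. Of these 1.77% were listed as higher and 2.96% as lower in homozygotes. That base also holds symbols that may not be expressed in otocysts. Of 48 translation initiation, elongation and termination factor genes, 0 were higher and 1 was lower, the termination factor gene Gspt1 at log2 -0.32 in the authors' deposited table (adjusted p 0.000422). Of 24 other genes with TOP mRNAs, 1 was listed, the histone chaperone gene Nap1l1 at log2 0.62 in the authors' deposited table (adjusted p 0.0083). Of 62 ribosome biogenesis genes, Taf1d, a subunit gene of the RNA polymerase I initiation factor, was higher (log2 0.93, adjusted p 9.37e-13) and Mdn1, which encodes a remodelling enzyme of large subunit precursors, was lower (log2 -0.89, adjusted p 0.0362), both by the authors' deposited table. The shares listed in either direction were 2.08%, 4.17% and 3.23% of these 3 lists, near the background. Of 21 host genes of small nucleolar RNAs, 3 (14.3%) were higher: Snhg12 (log2 1.38), 1500012F01Rik, an older symbol of Zfas1 (1.25), and Snhg1 (1.06) in the authors' deposited table. Of the 78 mitochondrial ribosomal protein genes and the 40 proteasome subunit genes, 0 were listed in either genotype by the authors' adjusted p. The lists used here give no value for genes that were not called. Of the 84 respiratory chain and ATP synthase genes, 4 (4.76%) were higher: Ndufa4l2 (log2 3.56), Cox4i2 (3.25), Cox6b2 (0.92) and Ndufv3 (0.91) in the authors' deposited table.

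Of 38 genes that control ribosomal protein synthesis through mTOR, LARP1 or Myc, 3 were higher and 1 was lower in homozygotes. In either direction this was 10.5% of the list, while 1.77% of protein-coding symbols were listed as higher and 2.96% as lower. The difference was not tested. The mTOR inhibitor gene Ddit4 was at log2 2.94, the gene of the translation repressor Eif4ebp1, an mTOR substrate, at 1.99 and the Myc antagonist gene Mxi1 at 0.59 in the authors' deposited table. Gatsl2, an older symbol of Castor2, was at -1.22 on the log2 scale in that table. Mtor, Larp1, Myc and Mycn were not listed. In heterozygotes 0 of these genes, of the translation factors, of the biogenesis genes and of the host genes were listed.

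**Figure D4:**
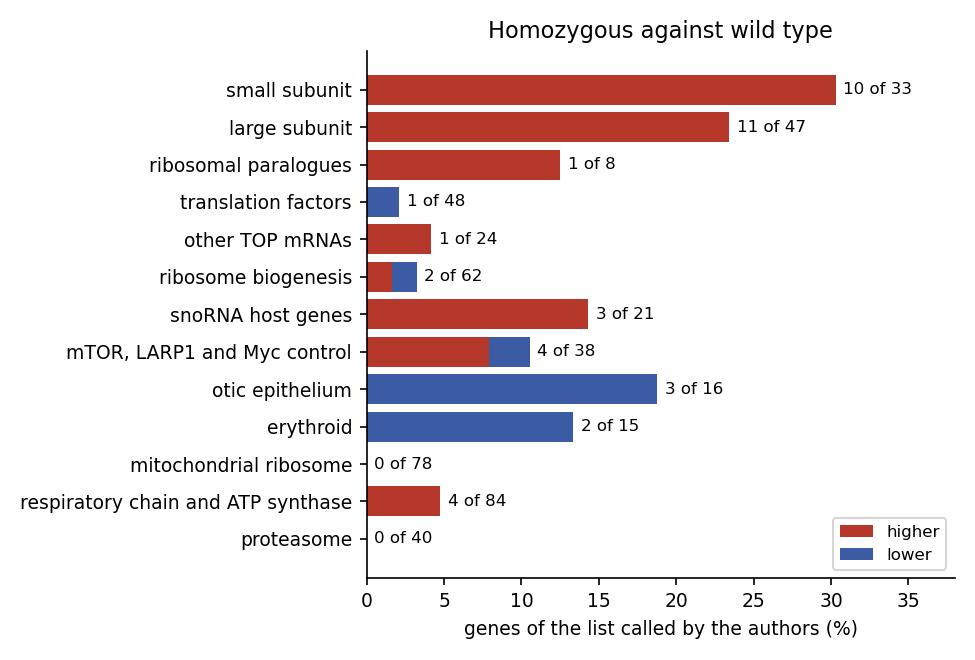
Share of each gene list that the authors called in homozygous against wild type otocysts, as higher (red) or lower (blue), with the number called of the number in the list. The small subunit (10 of 33) and large subunit (11 of 47) lists have the largest shares called as higher, and the mitochondrial ribosome (0 of 78) and proteasome (0 of 40) lists have none.

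A few marker genes of the tissue and of blood were listed in the same comparison. Of 16 otic epithelium markers 3 (18.75%) were lower in homozygotes and 13 were not listed. The 3 were Otx1 (log2 -4.20), Oc90 (-2.21) and Eya1 (-1.33) in the authors' deposited table. Of 15 erythroid markers 2 (13.3%) were lower, Hba-a2 (log2 -1.47) and Slc4a1 (-1.31), and 0 were higher in the authors' deposited table. Among all protein-coding symbols 2.96% were listed as lower in homozygotes. In heterozygotes 0 otic markers were listed. There 4 erythroid markers (26.7%) were lower, against 0.427% of protein-coding symbols. In the authors' deposited table these were Hbb-b2 (log2 -2.44), Slc4a1 (-0.44), Hba-x (-0.36) and Hba-a1 (-0.30). Levels per library were not used, so summed levels of these markers in each group cannot be given, and their part in the ribosomal protein folds was not tested. Xist, the transcript that silences an X chromosome in females, was at log2 9.64 in homozygotes in the authors' deposited table, and no label states which embryos were male or female. It was not listed in heterozygotes. Sex and genotype cannot be told apart for the homozygous folds, those of autosomal genes included. Of the 22 members, 20 are autosomal. Of the 4 X-linked genes of the family, Rpl39 and Rps4x were listed and Rpl10 and Rpl36a were not.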

How the data were processed

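The deposited data are 4 lists of genes called by the authors, 1 per direction for heterozygous and for homozygous against wild type otocysts. Each deposited list gives a symbol, a log2 fold change of mutant relative to wild type and an adjusted p-value, both computed by the authors. All adjusted p-values lie under 0.05. Bowtie2 2.0.6, DESeq 1.22.1 and mm9 are named, per the submitters' processing notes, with no roles. Counting, filters and the treatment of shared reads are stated in none of the sources used. The depth per library is unknown. No count test could be run, so the calls were taken as deposited.

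Members were taken by name. Members, gene lists and alternatives were chosen with earlier results of these data known. The rule names every listed member, though some are not reported here by name and enter the counts alone, and of other lists up to 4 called genes by adjusted p. Genes named as not listed beyond these were chosen after the lists were read. Symbols were matched to GENCODE M21 directly or through RefSeq synonyms (1078 of 1085 homozygous and 137 of 138 heterozygous genes). Copies were sought with BLAST 2.17.0 among all annotated transcripts, with the principal isoform of each gene as query. Promoters are RefSeq's, build GRCm38.p6, another build than the authors', and no coordinates of the authors' are given. Computation used Python 3.11.15, pandas 2.3.3 and matplotlib 3.10.9. The name rule was tested on simulated names. No set test was made.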

Additional observations from a re-analysis of the deposited data

How the results depend on the processing

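The count of 22 higher ribosomal protein genes in homozygotes rests on many calls near the threshold: it was 9 at an adjusted p under 0.01 and 4 under 0.001, and 4 with a minimum absolute log2 fold of 1. It was 20 at a log2 fold of at least 0.75, 21 without paralogues and 21 with the written list of the ribosome. Chosen after seeing the data, it was 24 with names ending in -ps and 20 without X-linked genes. None was lower under any of these. The median log2 fold of 0.91 was 0.92 at an adjusted p under 0.01, 0.90 without X-linked genes and 0.91 under the other member definitions. In heterozygotes the count of 1 became 0 at an adjusted p under 0.01 and stayed 1 with the written list. These alternatives only narrow or redefine the deposited lists and cannot add genes that the authors did not call. No paired analysis was possible because the columns carry comparisons and not libraries. For the same reason leaving out each replicate was not run. The depth limits cannot be stated.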

Other observations

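The 22 genes higher in homozygotes, 25.6% of the 86 annotated family members, lie on 14 chromosomes. Chromosome 11 held 4 of its 7 annotated family members, Rpl19, Rpl23, Rpl38 and Rps27a. Chromosome 7, which has the most annotated members, held 3 of 14, Rplp2, Rps16 and Rps19. Chromosome 9, with 7 annotated members, held none. The spread of called genes over chromosomes was not tested. Of the ribosomal protein S6 kinase family, which the name rule leaves out, Rps6kl1 was the 1 in the authors' deposited table, lower in homozygotes (log2 -2.30, adjusted p 0.0123).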
